A study of Mus musculus with 2 samples.

Results

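The collagen genes were described across the cell classes of 2 single-cell libraries from the right ventricle of mouse pups, the chamber that pumps blood to the lungs. The members were all features whose symbol is Col, a number, a and a number, and which had at least 50 UMIs (unique molecular identifiers, 1 for each captured transcript) summed over all barcodes of both libraries. This gave 40 members, from 44 features with such a symbol and 27999 features in all. The member nearest to the threshold from above was Col6a5 with 65 UMIs, and the nearest below it was Col9a2 with 47 UMIs. Col2a1, Col6a4 and Col9a1 also stayed below it, with 13, 24 and 20 UMIs. The members held 71475 UMIs in library 1 and 211615 in library 2, out of 57982200 and 50199793 UMIs of all genes.

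Both libraries belong to 1 group: pups of the strain C57/BL6J with floxed alleles of CBP (CBP flox/flox), of p300 (p300 flox/flox) and of Trap (Trap flox/flox). All received AAV9, a virus vector that reaches the heart, on postnatal day 1 to delete p300 and CBP, which are histone acetyltransferases, and the hearts were taken on postnatal day 21. No untreated or vector-only library was analysed here, so no value below measures an effect of the deletion. The promoter that drives the recombinase, and whether the 2 libraries came from separate pups, are not given in the labels. The p-values below rest on the spread left between these libraries after an overall difference between them is taken out. That spread, estimated over all cell classes together, may be technical.

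Cells were grouped without using any collagen gene, named from marker genes, and summed into 13 classes per library. There were 3 fibroblast subtypes. Adventitial-type fibroblasts (321 and 814 cells in libraries 1 and 2) carried Pi16, at 557 and 461 CPM (UMIs scaled to a total of 1000000 for all genes in that class and library). Vit-type fibroblasts (165 and 490 cells) carried Vit, at 411 and 360.0 CPM. The remaining fibroblasts (562 and 1131 cells) fulfilled neither list. The other classes were endocardial-like (132 and 978 cells, the inner lining of the chamber), endothelial-like (570 and 890 cells, the other blood vessel lining), lymphatic endothelial-like (47 and 185), pericyte-like (360 and 407, the cells that wrap capillaries), smooth muscle-like (54 and 22), mesothelial-like (63 and 561, the covering layer of the heart), Schwann-like (34 and 52, glia of nerves), macrophage-like (230 and 343), T or NK cell-like (22 and 49) and cardiomyocyte-like (7132 and 2210). Every pair of values below gives library 1 and then library 2.

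Libraries 1 and 2 held 12736 and 9447 barcodes with a median of 3586 and 3945 UMIs, of which 11551 and 8424 were kept as cells, and 17 barcode sequences occurred in both. Cells left unnamed were 13.7% and 3.47% of those kept, and a cluster of 281 cells with hepatocyte markers occurred in library 1 alone; neither enters a comparison. The labels describe an enrichment for CD45+ cells, but macrophage-like cells made up 1.99% and 4.07%. Cardiomyocyte transcripts were present in every class: the summed level of 12 cardiomyocyte markers was 7826 to 21278 CPM in the other classes of library 1 and 1818 to 6438 CPM in those of library 2, against 64090 and 74200 CPM in the cardiomyocyte-like class. The summed level of 11 fibroblast markers was 18594 to 23431 CPM in the fibroblast subtypes and 919 to 7063 CPM elsewhere, the highest in the T or NK cell-like class of library 2, and no marker of that list was at 0 in any class. The part of such carried transcripts in low collagen levels was not tested. The targeted genes gave 111 and 117 CPM (Ep300, p300) and 387 and 465 CPM (Crebbp, CBP) in cardiomyocyte-like cells, which checks nothing, since reads of this chemistry come from transcript 3′ ends and the place of the floxed exons is not given.

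Collagens are secreted or membrane-bound proteins whose chains wind into triple helices. Fibrillar collagens form the tensile fibres of the heart's interstitium, valves and outer layer, type IV collagens form the sheet-like network of basement membranes around vessels and muscle cells, and smaller families such as type VI link cells and basement membranes to the fibres. In the heart fibroblasts are known as the main makers of fibrillar collagen, while endothelial cells, pericytes and muscle cells contribute to basement membranes.

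The type IV chain genes lie in 3 head-to-head pairs, 2 of which share a start region, and both genes of a pair are described together below. Col4a4 (chromosome 1, 82448423 to 82586849, minus strand) and Col4a3 (82586921 to 82722059, plus strand) start 72 bases apart, so that 71 bases lie between their first exons. Col4a1 (chromosome 8, 11198423 to 11312826, minus strand) and Col4a2 (11312805 to 11449287, plus strand) start 21 bases apart and their first exons overlap by 22 bases. The shared stretches are shown because the paired genes ran close together across classes: over the 13 classes Pearson's r of log2 levels was 0.938 for Col4a1 with Col4a2 and 0.919 for Col4a3 with Col4a4, against a median of 0.301 over all 780 pairs of members. These r values are descriptions over classes that share 2 libraries. The sequences are those of the RefSeq promoter table on GRCm38.p6, read 5′ to 3′ on the plus strand, with gene starts from the GENCODE vM21 annotation. Capitals mark GGGCGG, the GC box that the Sp1 family of factors recognises, searched on both strands; no other motif was searched.
Col4a4-Col4a3, chr1:82586850-82586920: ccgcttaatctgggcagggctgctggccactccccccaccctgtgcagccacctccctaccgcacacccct
Col4a2-Col4a1, chr8:11312805-11312826: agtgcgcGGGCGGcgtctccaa
The 71 bases between Col4a4 and Col4a3 were 69.0% G or C and held no GGGCGG, a motif that 20.7% of 32851 promoters held in the 71 bases before their start. The 22 bases shared by Col4a2 and Col4a1 were 72.7% G or C and held it 1 time, as did 4.09% of promoters in their first 22 bases. Distance did not order the other pairs. Col4a5 and Col4a6, head to head on chromosome X with starts 1309 bases apart, had r = 0.695. Col6a1 and Col6a2, 102538 bases apart on chromosome 10, had r = 0.987. Col6a5 and Col6a6, 132483 bases apart on chromosome 9, had r = 0.413. Col3a1 and Col5a2, 191744 bases apart on chromosome 1, had r = 0.795, and Col1a1 and Col1a2, on chromosomes 11 and 6, had r = 0.979.

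**Figure D1:**
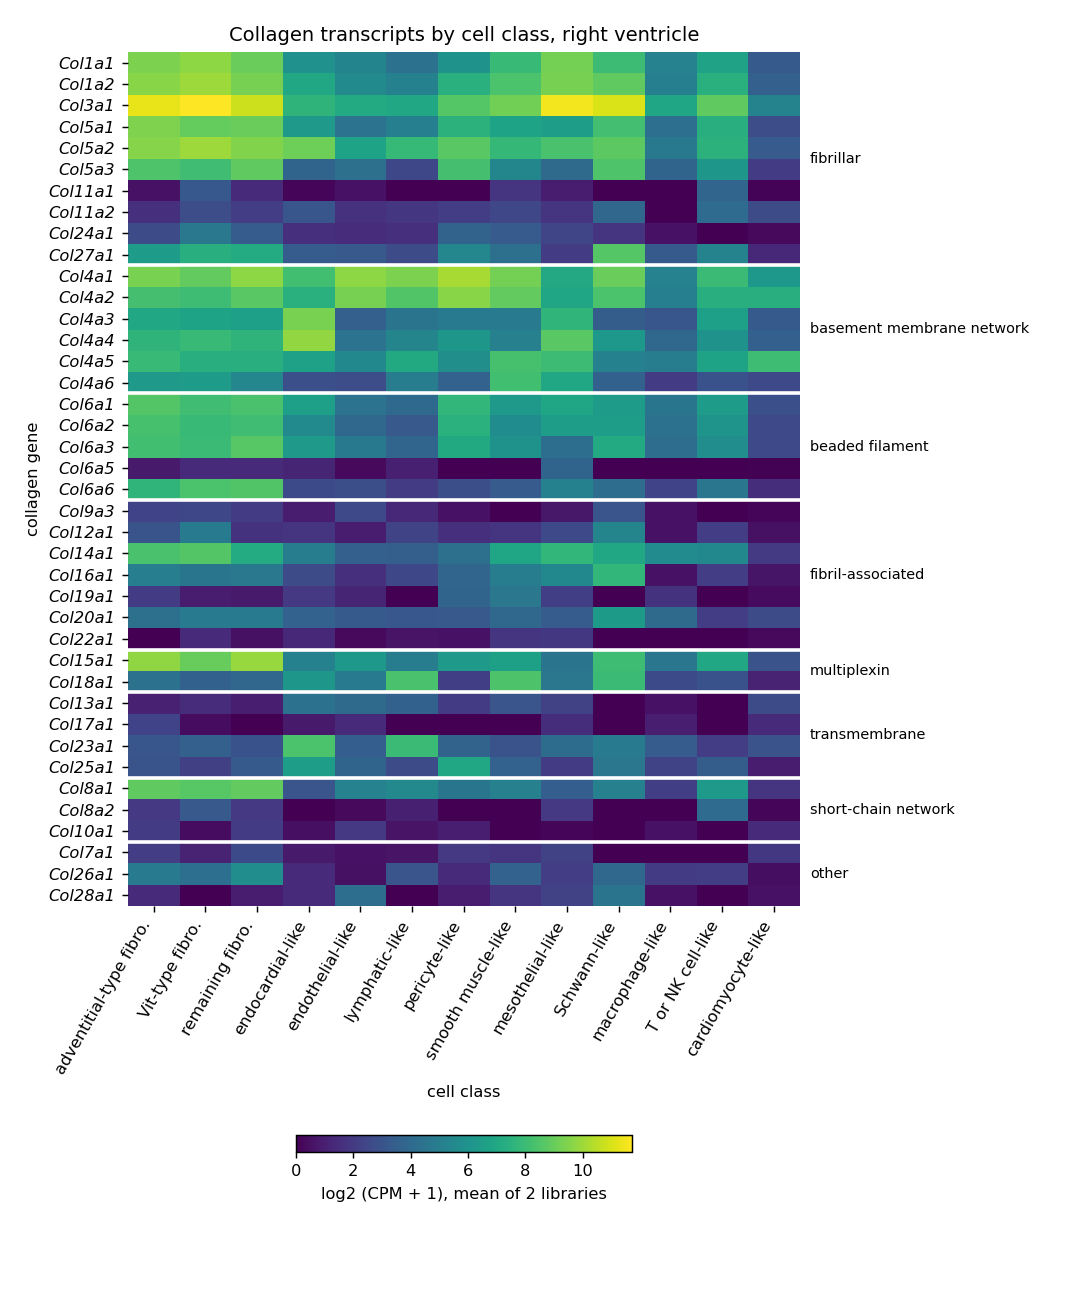
Level of each of the 40 collagen members (rows, grouped by role) in the 13 cell classes (columns). Colour shows log2(CPM + 1) of the mean CPM of the 2 libraries, from dark violet (low) to yellow (high). The chains of types I, III and V and those of type VI other than Col6a5 are bright in the 3 fibroblast columns and Col4a3 and Col4a4 in the endocardial-like column; the cardiomyocyte-like column is dark apart from Col4a1, Col4a2 and Col4a5.

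By level alone, 18 members peaked in 1 of the 3 fibroblast subtypes, 6 in Schwann-like, 4 in endocardial-like, 4 in smooth muscle-like, 3 in pericyte-like, 3 in T or NK cell-like and 2 in mesothelial-like cells. A class in which a member had no UMI is listed at 0, which allows up to 3 UMIs, or 0.075 CPM in the cardiomyocyte-like class of library 1, the largest sum, and 77.9 CPM in the T or NK cell-like class of library 1, the smallest. Such limits and the intervals given below cover counting error only. Levels are not compared between genes, because 3′ counts are not a measure per transcript length.

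Of the 10 fibrillar members, the chains of types I and III were high in the fibroblasts and the mesothelium and those of type V in the fibroblasts. Col1a1, the major chain of type I, the stiff fibre of the heart, was at 719 and 952 CPM in Vit-type, 549.9 and 808 in adventitial-type and 469 and 582 in remaining fibroblasts. Its levels in mesothelial-like cells were 556 and 675 CPM, those in Schwann-like cells 253 and 260.5 and those in pericyte-like cells 59.6 and 64.0, while cardiomyocyte-like cells had 7.45 and 10.2 (exact Poisson 95% intervals 6.62 to 8.34 and 8.81 to 11.7). The mesothelial values lay inside the range of the fibroblast subtypes and all others outside the fibroblasts lay below it.
Col1a2, the other type I chain, was at 755 and 1239.6 CPM in Vit-type, 596 and 998 in adventitial-type and 487 and 769 in remaining fibroblasts. Outside the fibroblasts it was at 546 and 708 in mesothelial-like, 466 and 452 in Schwann-like and 146 and 191 in pericyte-like cells, and at 7.72 and 14.5 in cardiomyocyte-like cells. Col3a1, the elastic partner of type I, was at 2277 and 4375 CPM in Vit-type, 1564 and 3575 in adventitial-type and 1291 and 2260.5 in remaining fibroblasts. It was at 1998 and 3746 CPM in mesothelial-like and 1825 and 2394 in Schwann-like cells. It was higher in library 2 in each of these 5 classes, and the library values of one class often spanned those of another.

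Type V collagen seeds fibrils and sets their width. Col5a1 was at 637 and 742 CPM in adventitial-type, 460.4 and 531 in Vit-type and 443 and 606 in remaining fibroblasts. Col5a1 was at 227 and 354 CPM in Schwann-like, 152 and 213 in pericyte-like, 69.4 and 109 in mesothelial-like and 75.9 and 77.0 in endocardial-like cells. Col5a2, its partner, was at 860.1 and 1138 CPM in Vit-type, 634 and 905 in adventitial-type and 646 and 799.6 in remaining fibroblasts. Its levels were 447 and 665 CPM in endocardial-like and 324 and 497 in pericyte-like cells. Within each library the endocardial-like class was below all 3 fibroblast subtypes in Col5a2, as in Col5a1. Col5a3, another type V chain, was at 569 and 335 CPM in remaining, 417 and 293 in adventitial-type and 367 and 185 in Vit-type fibroblasts. It was at 413 and 290.0 CPM in Schwann-like and 342 and 269.9 in pericyte-like cells, with 18.9 and 11.6 in mesothelial-like cells. The mesothelial-like class was thus among the low classes for this chain, although it was among the high ones for types I and III.

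The other fibrillar members were rarer. Col27a1, a chain known from cartilage and developing tissue, was highest in Schwann-like cells with 373 and 408 CPM, against 108 and 221 in Vit-type and 95.95 and 194 in remaining fibroblasts. Col24a1, a minor fibrillar chain, reached 27.6 and 21.8 CPM in Vit-type fibroblasts. Col11a1 and Col11a2, the type XI chains best known from cartilage, reached 2.76 and 14.1 CPM in Vit-type fibroblasts and 10.5 and 5.33 CPM in endocardial-like cells; the T or NK cell-like class of library 1 listed 26.0 CPM for each, which at its size is 1 UMI.

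**Figure D2:**
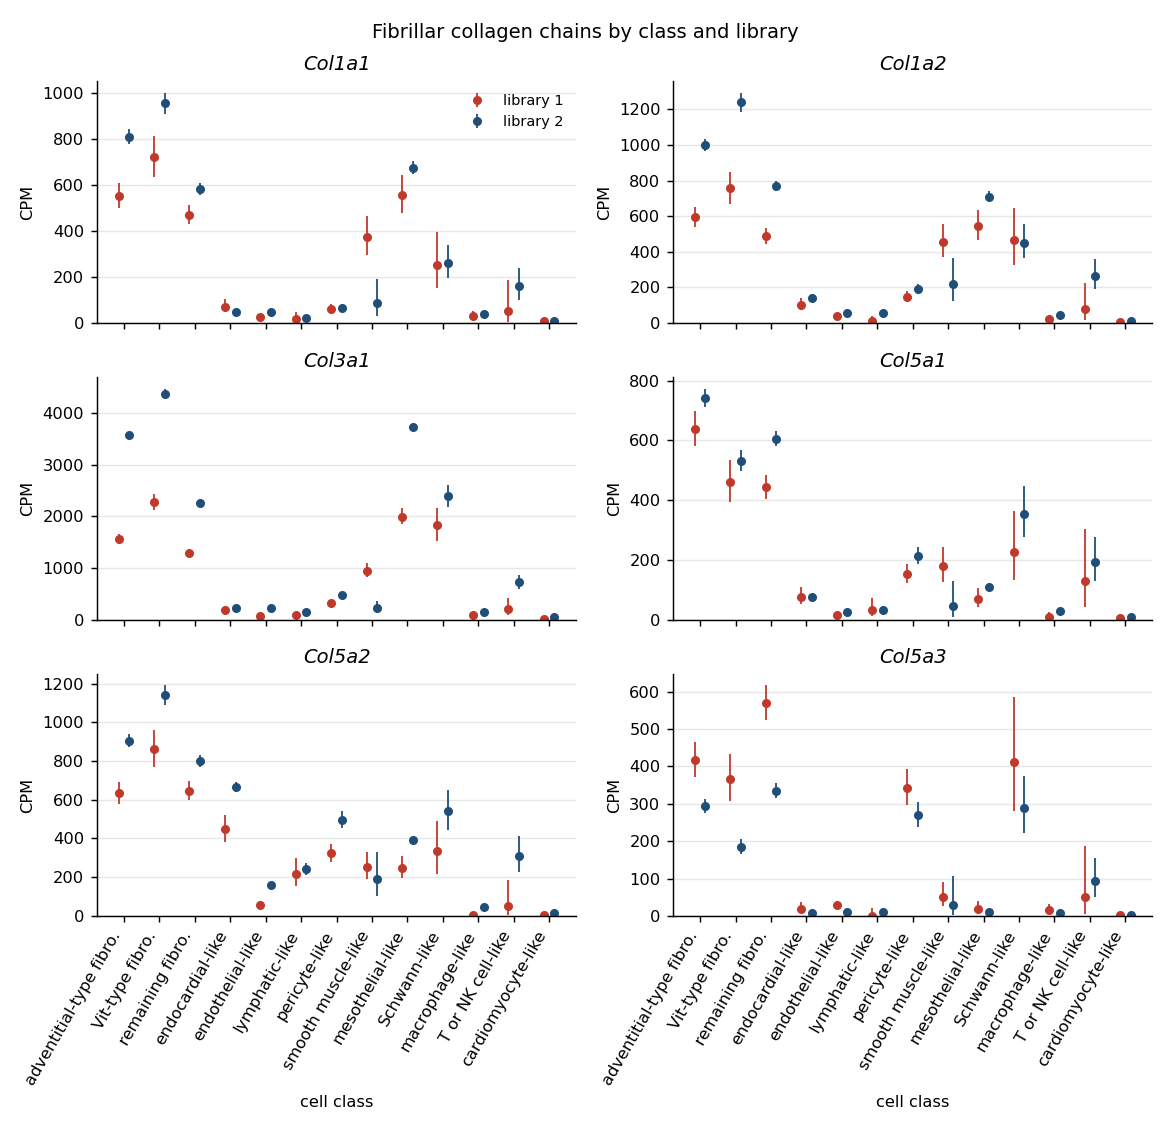
Level (CPM, linear axis with its own range in each panel) of the type I, III and V chains in the 13 cell classes, with library 1 in red and library 2 in blue and bars for the exact 95% Poisson interval of each count. The 3 fibroblast subtypes, mesothelial-like and Schwann-like cells sit at the top for Col3a1, and endocardial-like cells, at 447 and 665 CPM, come closest to the fibroblasts for Col5a2.

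The 6 basement membrane chains split by class into their gene pairs. Col4a1 and Col4a2, which form the common network of vessel basement membranes, were highest in pericyte-like cells, at 1124 and 1149 CPM for Col4a1 and 771 and 789.8 for Col4a2. Endothelial-like cells had 865 and 835 CPM of Col4a1 and 692 and 551 of Col4a2. Remaining fibroblasts had 846 and 829 CPM of Col4a1 and 439 and 399 of Col4a2. Endocardial-like cells had 254 and 314 CPM of Col4a1 and 196 and 144 of Col4a2, and cardiomyocyte-like cells 73.8 and 76.0 CPM of Col4a1 and 169.8 and 152 of Col4a2. Pericyte-like levels of both chains were above those of every other class in both libraries.

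Col4a3 and Col4a4, known from the specialised basement membranes of the kidney glomerulus and the inner ear, were highest in the endocardial-like class. Col4a3 was at 450.1 and 841 CPM there, against 117 and 285 in mesothelial-like and 4.85 and 16.9 in endothelial-like cells. In fibroblasts Col4a3 was at 68.9 and 148 CPM in the Vit-type, 122 and 127 in the adventitial-type and 77.0 and 116 in the remaining cells. Col4a4 was at 639 and 1150.2 CPM in endocardial-like, 278 and 560.2 in mesothelial-like and 10.7 and 31.2 in endothelial-like cells. It was at 185 and 307 CPM in Vit-type and 174 and 219.9 in adventitial-type fibroblasts. The endocardial-like values of both genes lay above every value of the other 12 classes. The mesothelial-like class also held a summed level of endocardial markers of 2487 and 4642 CPM, with Npr3 at 299.9 and 598 CPM against 2360.4 and 2845 CPM in endocardial-like cells; its part in the mesothelial levels of Col4a3 and Col4a4 was not tested.

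Per cell the same order held. With every cell thinned to 1000 UMIs, 34.1% and 48.4% of endocardial-like cells had a UMI of Col4a3, against 0.798% and 1.05% of endothelial-like and 0.455% and 2.66% of macrophage-like cells, a class not known to make it. Unthinned, Col4a3 was seen in 51.5% and 73.3% of endocardial-like, 0.877% and 3.48% of endothelial-like and 0.435% and 3.21% of macrophage-like cells. The median cell held 2338.5 and 3404.5 UMIs in the endocardial-like, 1618 and 2242.5 in the endothelial-like and 1573.5 and 2696 in the macrophage-like class. For Col4a4 the thinned share of endocardial-like cells was 41.9% and 60.2% and the unthinned share 65.2% and 85.5%. Thinning left out 3 and 12 endocardial-like, 69 and 29 endothelial-like and 10 and 5 macrophage-like cells. The endothelial-like shares were thus near the macrophage-like background.

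Col4a5 and Col4a6, the X-linked pair of smooth muscle and epithelial basement membranes, behaved unlike each other in the muscle cells of the chamber wall. Col4a5 was at 252 and 276 CPM in cardiomyocyte-like, 196 and 318 in mesothelial-like, 482 and 148 in smooth muscle-like and 64.1 and 21.0 in endothelial-like cells. Col4a6 was at 2.82 and 7.13 CPM in cardiomyocyte-like, 107 and 145 in mesothelial-like, 431 and 133 in smooth muscle-like and 79.9 and 97.7 in Vit-type cells. Thinned to 1000 UMIs, 20.7% and 22.8% of cardiomyocyte-like cells had a UMI of Col4a5, against 2.27% and 1.48% of macrophage-like cells. Unthinned, the Col4a5 share was 62.2% and 75.7% in cardiomyocyte-like cells, whose median was 4738 and 7416.5 UMIs a cell, and 6.52% and 6.71% in the shallower macrophage-like cells.

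**Figure D3:**
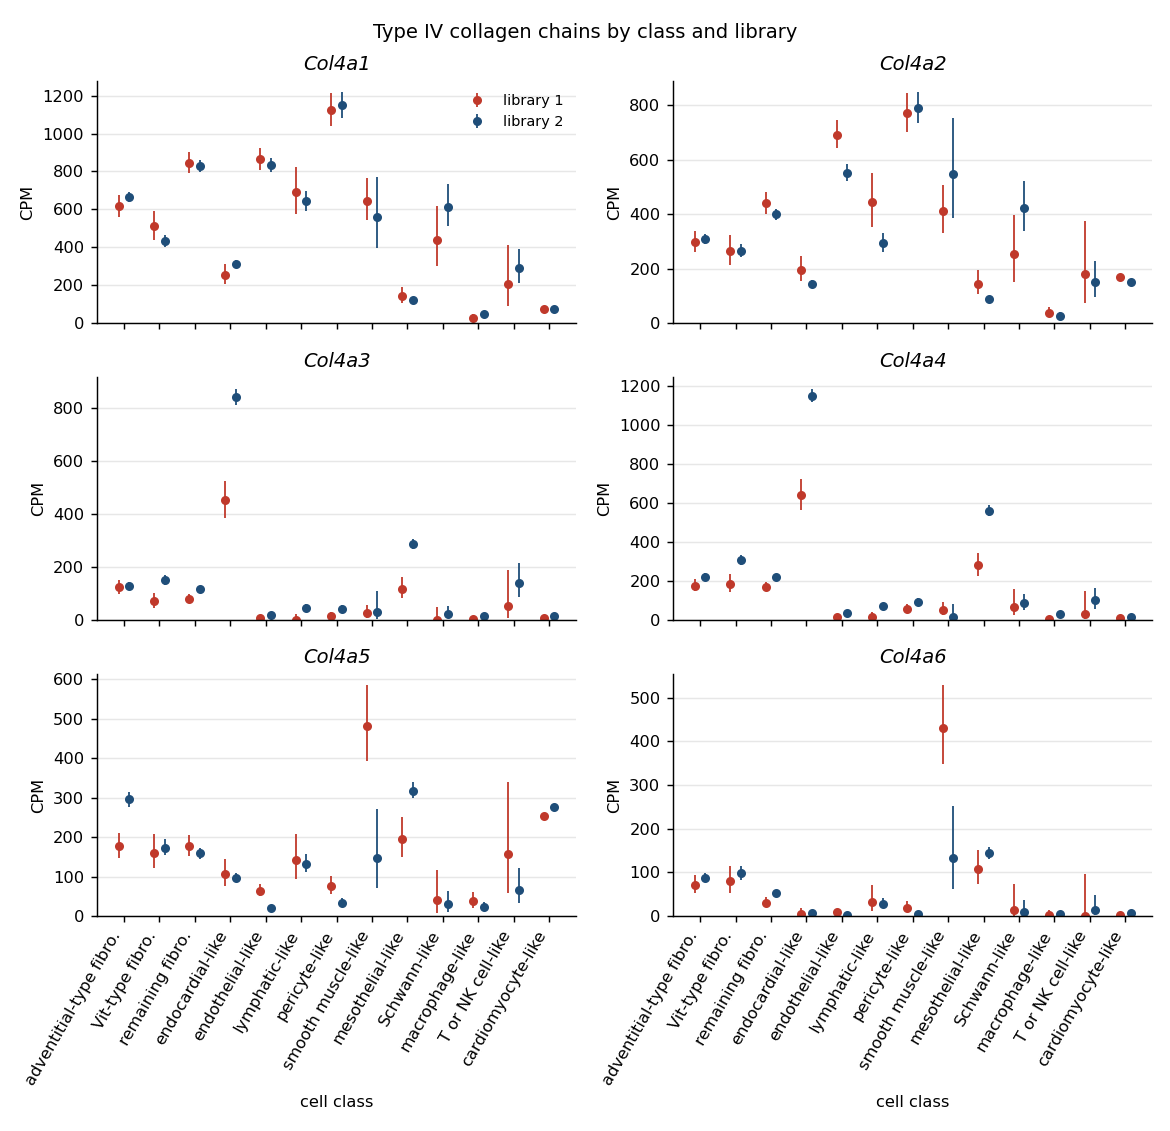
Level (CPM, linear axis with its own range in each panel) of the 6 type IV chains in the 13 cell classes, with library 1 in red and library 2 in blue and bars for the exact 95% Poisson interval of each count. Col4a1 and Col4a2 peak in pericyte-like cells, with Col4a1 at 1124 and 1149 CPM, Col4a3 and Col4a4 in endocardial-like cells, and Col4a5 but not Col4a6 is high in cardiomyocyte-like cells.

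The share of a chain within its pair also differed between classes. This compares classes, not the amounts of the chains, since both counts depend on how well each transcript is captured. Of the Col4a1 and Col4a2 UMIs of cardiomyocyte-like cells, Col4a1 made up 30.3% of 9750 (29.4 to 31.2%) and 33.3% of 4324 (31.9 to 34.7%), with Clopper-Pearson 95% intervals in parentheses. Its share was 59.3% and 59.3% in pericyte-like, 55.5% and 60.3% in endothelial-like and 67.4% and 68.3% in adventitial-type cells. Col4a5 made up 98.9% and 97.5% of the Col4a5 and Col4a6 UMIs in cardiomyocyte-like and 95.3% and 92.9% in endocardial-like cells, against 52.8% and 52.6% in smooth muscle-like and 64.6% and 68.7% in mesothelial-like cells. Col5a1 made up 14.5% and 10.4% of the Col5a1 and Col5a2 UMIs in endocardial-like and 22.0% and 21.7% in mesothelial-like cells, against 34.9% and 31.8% in Vit-type and 50.1% and 45.0% in adventitial-type fibroblasts. Col1a1 made up 28.9% and 25.1% of the type I UMIs in pericyte-like and 50.4% and 48.8% in mesothelial-like cells. In the cardiomyocyte-like class the Col4a1 share was below that of the 3 other classes named in both libraries.

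The 5 beaded filament members build type VI collagen, a microfibril that anchors cells to the matrix. Col6a1 was at 363 and 385 CPM in adventitial-type, 294 and 353 in remaining and 276 and 282 in Vit-type fibroblasts. Its levels were 244 and 188 CPM in pericyte-like and 97.9 and 140.4 in mesothelial-like cells. Col6a2 was at 268 and 354 CPM in adventitial-type, 226 and 332 in remaining and 248 and 237 in Vit-type fibroblasts and 167 and 184 in pericyte-like cells. Col6a3, the large chain of type VI, was at 357 and 440.2 CPM in remaining fibroblasts, 124 and 149 in pericyte-like and 22.1 and 13.6 in mesothelial-like cells. The mesothelial-like class was thus the low one among these for Col6a3. Col6a6, an alternative to Col6a3, was low outside the fibroblasts, at 446 and 296 CPM in remaining, 306 and 360.0 in Vit-type and 196 and 199.8 in adventitial-type fibroblasts and 28.4 and 40.5 in mesothelial-like cells. Col6a5, another alternative chain, was highest in mesothelial-like cells with 12.6 and 12.6 CPM, and no other class passed 2.85 CPM.

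Among the 7 fibril-associated members, which sit on the surface of fibrils, Col14a1 was highest in Vit-type and adventitial-type fibroblasts, at 339 and 407 CPM in Vit-type, 237 and 401 in adventitial-type and 102 and 192 in remaining fibroblasts. With 133 and 291 CPM in mesothelial-like and 107 and 152 in Schwann-like cells, both classes overlapped with the remaining fibroblasts. Col12a1, known from tissue under tension, was at 39.97 and 39.3 CPM in Schwann-like and 38.6 and 17.6 in Vit-type cells. Col16a1, a chain that links fibrils to other matrix, was at 173 and 256 CPM in Schwann-like and 34.7 and 51.8 in mesothelial-like cells. Schwann-like cells were also highest for Col20a1, with 53.3 and 113 CPM. Col19a1, a rare chain of basement membrane zones, was at 32.8 and 14.8 CPM in smooth muscle-like and 11.9 and 12.998 in pericyte-like cells.

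The multiplexins Col15a1 and Col18a1 are proteoglycans of basement membranes, and the end of the Col18a1 protein is endostatin. Col15a1 was at 716 and 1188 CPM in remaining, 630.4 and 1104 in adventitial-type and 444 and 565 in Vit-type fibroblasts and 119.9 and 418 in Schwann-like cells. Col18a1 was at 557 and 133 CPM in smooth muscle-like, 373 and 279 in lymphatic endothelial-like, 213 and 285 in Schwann-like and 65.4 and 81.0 in endocardial-like cells, against 5.51 and 17.6 in Vit-type fibroblasts. The levels of the pair were therefore high in different classes, apart from Schwann-like cells.

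Of the 4 transmembrane members, which span the cell membrane and can be shed, Col23a1 was high in 2 linings, at 269.5 and 389 CPM in endocardial-like and 214 and 281 in lymphatic endothelial-like cells, against 3.88 and 16.5 in endothelial-like cells. Thinned to 1000 UMIs, 21.7% and 24.7% of endocardial-like and 23.9% and 19.6% of lymphatic endothelial-like cells had a UMI of Col23a1; macrophage-like cells had 0.909% and 1.18%. Col25a1, known from neurons and from muscle innervation, was at 86.8 and 171 CPM in pericyte-like and 41.9 and 139 in endocardial-like cells. Col13a1, known from the neuromuscular junction, was at 20.9 and 20.2 CPM in endocardial-like and 10.7 and 20.1 in endothelial-like cells. Col8a1, 1 of 3 short-chain network members and known from vessel walls, was at 404 and 549 CPM in remaining, 413 and 504 in adventitial-type and 380.4 and 427 in Vit-type fibroblasts.

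Among the other 3 members, Col26a1 was highest in remaining fibroblasts, at 43.7 and 59.5 CPM, and Col28a1, known from peripheral nerve, was at 23.3 and 11.6 CPM in endothelial-like and 13.3 and 29.5 in Schwann-like cells. The filter on low counts kept 34 members, so 6 were not tested: Col7a1, the anchoring fibril chain, with 287 UMIs, Col10a1, the growth plate chain, with 166, Col17a1, a hemidesmosome protein, with 159, Col9a3, a type IX chain, with 105, Col8a2, a partner of Col8a1, with 98, and Col22a1, a chain of tissue junctions, with 73. Col7a1 was at 6.65 and 3.83 CPM in remaining fibroblasts. In adventitial-type fibroblasts Col10a1 was at 4.02 and 2.16 CPM and Col17a1 at 6.71 and 1.55 CPM. Col9a3 was at 5.51 and 4.12 CPM in Vit-type fibroblasts and 0 and 14.7 in Schwann-like cells, and Col22a1 at 4.68 and 0 CPM in smooth muscle-like cells. Col8a2 was at 5.51 and 11.8 CPM in Vit-type fibroblasts and at 26.0 and 6.63 in T or NK cell-like cells, there with 1 UMI in each library.

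Differences between classes were tested with edgeR's quasi-likelihood test on summed counts, across 13496 genes, with the library as a block. A difference is the log2 level of the class minus the mean of the classes it is set against. Its standard error was derived from the test, as the size of the difference over the square root of the F value. A gene was called where the Benjamini-Hochberg adjusted p was below 0.05 and the difference 2-fold or more. In comparisons with all other classes the 3 fibroblast subtypes were averaged to count as 1. Brackets after a gene give its difference ± standard error. Differences introduced by the word alone are differences of log2(CPM + 1) within 1 library, library 1 and then library 2, which have no test and understate low genes. There were 11 comparisons over the same 26 sums, so they share samples and are not independent of each other.

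**Figure D4:**
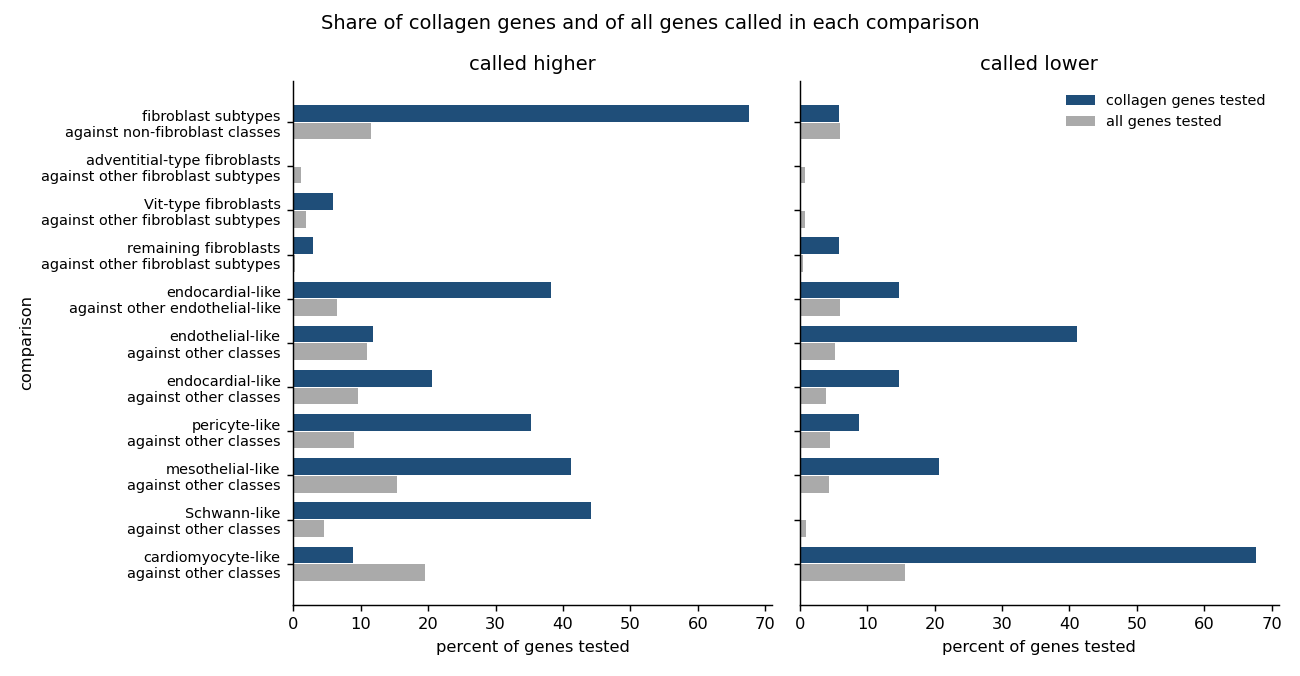
Percent of the 34 tested collagen members (blue bars) and of all genes tested (grey bars) called higher (left panel) and lower (right panel) in each of the 11 comparisons, by edgeR's quasi-likelihood test. Of the members, 23 were called higher in fibroblasts and 23 lower in cardiomyocyte-like cells, while the adventitial-type comparison has 0 in either direction.

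Most collagens were higher in the fibroblasts: chains of types I, III, V and, other than Col6a5, VI, Col8a1 and Col15a1 exceeded the average of the 10 other classes, while 2 membrane collagens were lower. Of the 34 members, 23 were called higher in fibroblasts, beside 11.5% of all genes, and 2 lower, a share near the 5.91% of all genes. The median difference was 2.32 over the members and 0.04 over all genes. By role, 9 of 10 fibrillar, 4 of 6 basement membrane and 4 of 5 beaded filament members were called higher.
Col6a6 had 196 to 446 CPM in the fibroblast subtypes, against 0 to 46.4 CPM (median 5.54) elsewhere, a difference of 4.99 ± 0.16, adjusted p = 1.17e-19. Col8a1 had 380.4 to 549 CPM in fibroblasts, against 0 to 159 CPM (median 15.1), a difference of 4.55 ± 0.17, adjusted p = 1.98e-18. Col15a1 had 444 to 1188 CPM, against 0 to 418 CPM (median 35.4), a difference of 3.88 ± 0.15, adjusted p = 3.3e-18. These 3 did not overlap with any other class. Col5a3 differed by 3.56 ± 0.13, with Schwann-like cells at 413 and 290.0 CPM inside the fibroblast range, and Col26a1 by 3.34 ± 0.26. Col27a1 differed by 3.22 ± 0.13 although the Schwann-like class was higher than any fibroblast subtype.
Of type I, Col1a1 had 469 to 952 CPM in fibroblasts, against 7.45 to 675 CPM (median 55.8) elsewhere (3.15 ± 0.14, adjusted p = 3.59e-17), and Col1a2 differed by 2.77 ± 0.13. Of type V, Col5a1 had 443 to 742 CPM, against 4.87 to 354 CPM (median 72.7) (3.18 ± 0.12, adjusted p = 1.75e-18), and Col5a2 differed by 2.37 ± 0.15. Col5a1 did not overlap with any other class and Col1a1 overlapped with mesothelial-like cells. Of type VI, Col6a1, Col6a2 and Col6a3 differed by 2.65 ± 0.13, 2.83 ± 0.12 and 3.01 ± 0.16, all 3 without overlap. Col3a1 was 2.88 ± 0.18 higher and Col14a1 2.93 ± 0.13 higher. Of type IV, Col4a6 was 2.10 ± 0.24, Col4a4 1.69 ± 0.15 and Col4a3 1.60 ± 0.17 higher. Col4a1 was just past 2-fold (1.05 ± 0.11, adjusted p = 4.53e-09), and Col4a2 stayed under it (0.46 ± 0.11, adjusted p = 0.00142). Col24a1, Col16a1 and Col12a1 were also called higher, and so was Col11a1 (adjusted p = 0.0117), whose other classes were in part at 0. Col11a1 held 49 UMIs over all named classes and passed the filter on low counts in part through the Vit-type class, where it is high.
The lower calls were transmembrane: Col25a1 at 1.76 to 10.0 CPM in fibroblasts differed by -1.32 ± 0.36, adjusted p = 0.00427, and Col23a1 at 3.80 to 11.4 CPM by -1.27 ± 0.48, adjusted p = 0.0414. Col4a1 was below 2-fold under 5 alternatives, for example 0.99, adjusted p = 2.32e-49 with DESeq2 or 0.74, adjusted p = 1.65e-06 with doublets kept. Col11a1, tested under 6 alternatives only, lost its call with DESeq2. Col12a1 lost its call with doublets kept and Col23a1 at resolution 0.5 and without the replicate block (-1.24, adjusted p = 0.0794). Alone, Col11a1 differed by 0.31 and 1.87, Col4a1 by 1.21 and 0.99 and Col23a1 by -0.86 and -0.76. Col4a3 differed by 2.76 and 1.34, Col4a4 by 2.29 and 1.67, Col12a1 by 2.29 and 0.77 and Col6a6 by 6.17 and 4.98. Likewise Col15a1 differed by 4.53 and 3.94, Col8a1 by 5.42 and 4.58, Col27a1 by 2.59 and 3.36, Col26a1 by 2.58 and 3.56 and Col25a1 by -0.25 and -0.95.

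Within the fibroblasts few members separated the subtypes. Adventitial-type fibroblasts were named from markers alone, and their position in the tissue was not measured. In these cells 0 members were called in either direction by edgeR's quasi-likelihood test, beside 1.07% of all genes called higher and 0.771% lower. By that test 6 members had an unadjusted p under 0.05, and DESeq2 called 0. The differences were 0.03 ± 0.25 for Col1a1, 0.01 ± 0.25 for Col1a2, 0.03 ± 0.20 for Col4a1, -0.13 ± 0.20 for Col4a2, 0.45 ± 0.21 for Col5a1, -0.16 ± 0.28 for Col5a2, 0.33 ± 0.21 for Col6a1 and 0.27 ± 0.19 for Col6a2. None of these 8 passed the threshold.
In Vit-type fibroblasts 2 members were called higher, beside 1.89% of all genes, and 0 lower, beside 0.734%. Col12a1 had 38.6 and 17.6 CPM in Vit-type, against 1.77 to 7.73 CPM in the other subtypes (2.64 ± 0.54, adjusted p = 0.00288), with no overlap. Col11a1 had 2.76 and 14.1 CPM, against 0 to 1.90 CPM (3.28 ± 0.71, adjusted p = 0.00749), which are 1 to 24 UMIs a library. It held 49 UMIs over all named classes. It passed the filter on low counts through this class and a value of 1 UMI in T or NK cell-like cells, so its call adds no support beyond the levels. Col1a1 differed by 0.48 ± 0.25, Col1a2 by 0.49 ± 0.24, Col4a1 by -0.65 ± 0.21, Col4a2 by -0.43 ± 0.20, Col5a1 by -0.28 ± 0.22, Col5a2 by 0.41 ± 0.27, Col6a1 by -0.34 ± 0.22 and Col6a2 by -0.30 ± 0.20, none past the threshold. Col11a1 was tested under 6 alternatives and lost its call under 2, with DESeq2 (3.27, adjusted p = 0.438) and without the replicate block. Col12a1 lost its call with the stricter cell filter (1.84, adjusted p = 0.064). Alone, Col11a1 differed by 1.14 and 2.79 and Col12a1 by 2.86 and 1.92.
In the remaining fibroblasts 1 member was called higher, beside 0.259% of all genes, and 2 lower, beside 0.459%. Col26a1 had 43.7 and 59.5 CPM, against 13.4 to 42.1 CPM in the other subtypes (1.14 ± 0.28, adjusted p = 0.0476). Col14a1 had 102 and 192 CPM, against 237 to 407 CPM (-1.25 ± 0.22, adjusted p = 0.00186). Col12a1 had 2.85 and 1.77 CPM, against 6.71 to 38.6 CPM (-2.69 ± 0.63, adjusted p = 0.0337). All 3 were without overlap. Col1a1 differed by -0.51 ± 0.25, Col1a2 by -0.50 ± 0.25, Col4a1 by 0.61 ± 0.20, Col4a2 by 0.56 ± 0.19, Col5a1 by -0.16 ± 0.21, Col5a2 by -0.25 ± 0.28, Col6a1 by 0.01 ± 0.21 and Col6a2 by 0.03 ± 0.19, none past the threshold. None of the 3 calls held without the replicate block. That of Col26a1 was lost under 7 of 12 alternatives, also with RLE scaling, total UMIs only, DESeq2 (1.19, adjusted p = 0.382), doublets kept, classes of at least 50 cells and the T or NK cell-like class left out; alone it differed by 1.61 and 0.93. The call of Col12a1 was lost under 4 of 12, also with the stricter cell filter, collagens kept in clustering and classes of at least 50 cells, and that of Col14a1 also at resolution 2.

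The lining of the chamber and the lining of the vessels differed in the levels of their basement membrane chains. Endocardial-like cells, set against endothelial-like cells, were higher in Col4a3 and Col4a4 and lower in Col4a1 and Col4a2, and higher in the membrane collagens Col23a1 and Col25a1, in 2 of 3 type V and in 3 of 5 type VI chains. Of the 34 members, 13 were called higher in endocardial-like cells, beside 6.49% of all genes, and 5 lower, beside 5.96%. The median difference was 0.58 over the members and -0.02 over all genes. Col4a3 had 450.1 and 841 CPM in endocardial-like and 4.85 and 16.9 CPM in endothelial-like cells, a difference of 5.79 ± 0.36, adjusted p = 2.29e-12. Col4a4 had 639 and 1150.2 CPM, against 10.7 and 31.2 (5.34 ± 0.35, adjusted p = 3.57e-12). Col23a1 had 269.5 and 389 CPM, against 3.88 and 16.5 (4.82 ± 0.40, adjusted p = 3.76e-10). Col25a1 had 41.9 and 139 CPM, against 15.5 and 9.37 (3.10 ± 0.37, adjusted p = 2.94e-07). Both libraries agreed on the order for each of these 4, and no value of one class reached the other.
Col5a2 had 447 and 665 CPM in endocardial-like cells, against 58.2 and 158 CPM in endothelial-like cells (2.38 ± 0.35, adjusted p = 6.44e-06). Col5a1 had 75.9 and 77.0 CPM, against 14.6 and 26.8 (1.77 ± 0.33, adjusted p = 0.000188). Col6a1 had 83.7 and 106 CPM, against 11.6 and 29.9 (2.08 ± 0.31, adjusted p = 9.23e-06). Col6a2 had 26.2 and 64.7 CPM, against 11.6 and 16.9 (1.78 ± 0.32, adjusted p = 9.67e-05). Col6a3 was called higher too (1.51 ± 0.37). The other chains of these types were not called: Col5a3 differed by -0.77 ± 0.43, adjusted p = 0.289, Col6a6 by -0.996 ± 0.65, adjusted p = 0.394 and Col6a5 by -0.07 ± 1.59, adjusted p = 0.998. Of type I, Col1a2 was higher (1.34 ± 0.34, adjusted p = 0.00498) and Col1a1 missed the threshold (0.46 ± 0.37, adjusted p = 0.52). Col18a1 differed by 1.402 ± 0.35, Col4a5 by 1.4003 ± 0.40 and Col14a1 by 1.23 ± 0.38. The summed level of the 11 fibroblast markers was 3130 and 3061 CPM in endocardial-like and 1410 and 1407 CPM in endothelial-like cells. Its part in these higher calls was not tested.
The common network went the other way: Col4a1 had 254 and 314 CPM in endocardial-like and 865 and 835 CPM in endothelial-like cells (-1.59 ± 0.24, adjusted p = 9.78e-06). Col4a2 had 196 and 144 CPM, against 692 and 551 (-1.92 ± 0.24, adjusted p = 4.92e-07). Col8a1 had 5.23 and 9.59 CPM, against 18.4 and 51.7 (-2.17 ± 0.50, adjusted p = 0.00214). Col15a1 had 39.3 and 28.5 CPM, against 50.5 and 101 (-1.44 ± 0.41, adjusted p = 0.0138). Col28a1 had 2.62 and 0.799 CPM, against 23.3 and 11.6 (-3.65 ± 0.72, adjusted p = 0.000487). So within the type IV family the pairs parted by lining: Col4a3 and Col4a4 were higher in endocardial-like cells and Col4a1 and Col4a2 lower.
Without the replicate block 11 of the 18 calls held; those of Col14a1, Col15a1, Col18a1, Col1a2, Col4a5, Col6a3 and Col8a1 did not. Those of Col15a1, Col18a1 and Col8a1 were also lost with DESeq2, those of Col4a5, Col15a1 and Col8a1 with doublets kept and that of Col14a1 at resolutions 0.5 and 2. Alone, Col23a1 differed by 5.79 and 4.48, Col25a1 by 1.37 and 3.76, Col6a1 by 2.74 and 1.79, Col6a2 by 1.10 and 1.87, Col6a3 by 2.24 and 1.21, Col4a5 by 0.73 and 2.16, Col15a1 by -0.35 and -1.79 and Col28a1 by -2.75 and -2.81.

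**Figure D5:**
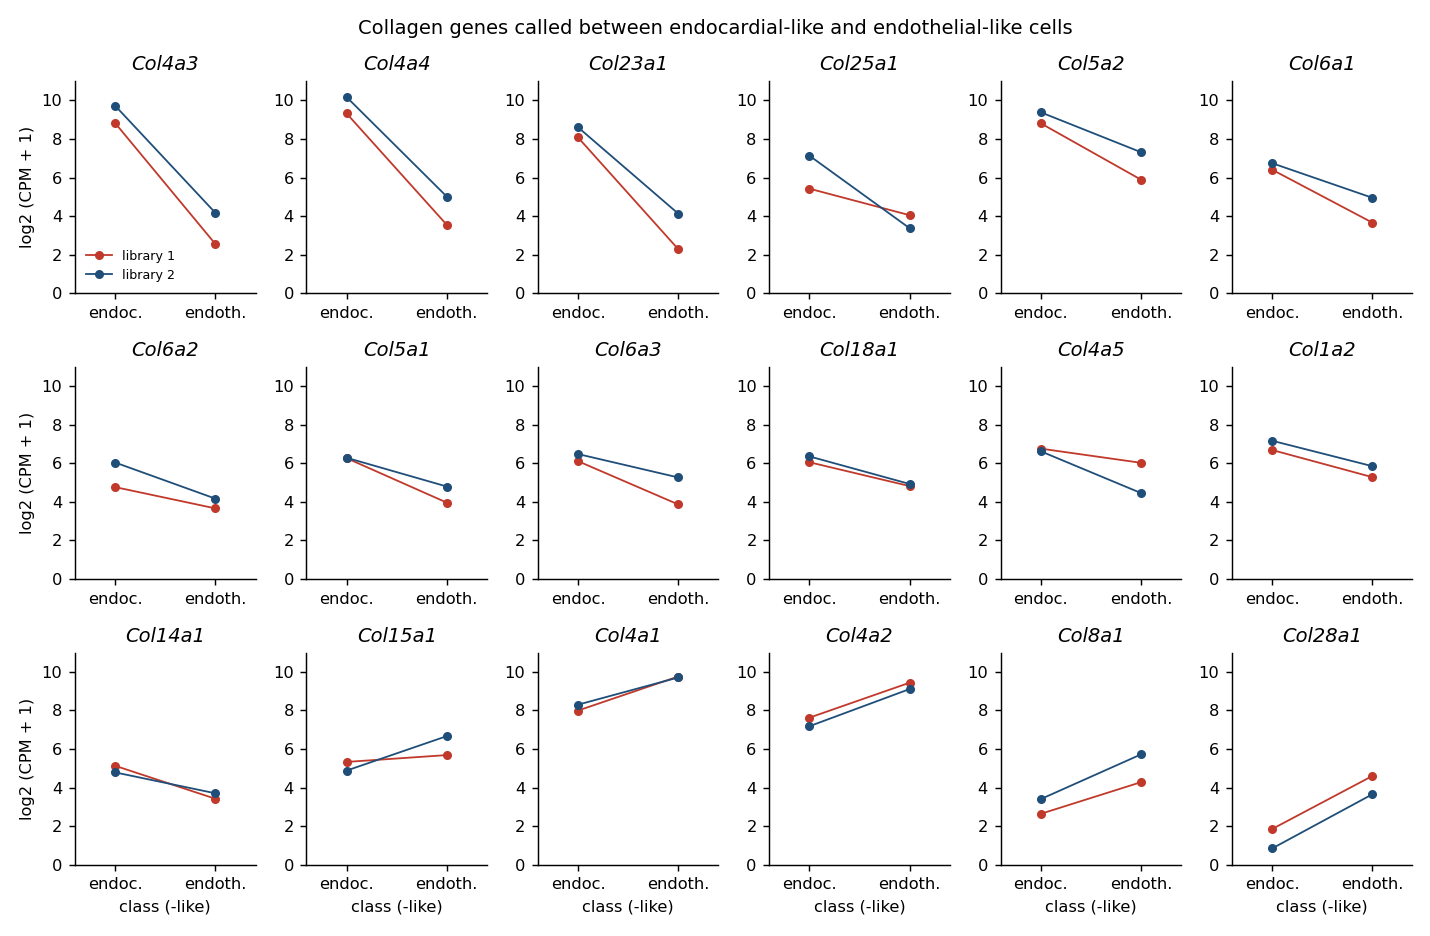
Level as log2(CPM + 1) in endocardial-like (left in each panel) and endothelial-like (right) cells of the 18 collagen members called between them, with a line joining the values of library 1 (red) and of library 2 (blue). Col4a3, Col4a4 and Col23a1 are farthest apart with endocardial-like cells above, and Col4a1 and Col4a2 lie in the opposite order.

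Set against all other classes, the endocardial-like cells stood out for Col4a3, Col4a4 and the membrane collagens. They had 7 members called higher, beside 9.65% of all genes, and 5 lower, beside 3.82%. Col23a1 had 269.5 and 389 CPM in endocardial-like cells, against 0 to 281 CPM (median 9.33) in the others (4.56 ± 0.24, adjusted p = 3.97e-15), overlapping with lymphatic endothelial-like cells. Col4a3 had 450.1 and 841 CPM, against 0 to 285 CPM (median 34.8) (4.46 ± 0.18, adjusted p = 2.46e-17). Col4a4 had 639 and 1150.2 CPM, against 2.31 to 560.2 CPM (median 67.5) (4.01 ± 0.17, adjusted p = 7.23e-17). Both were without overlap, and mesothelial-like cells came next. Col25a1 had 41.9 and 139 CPM, against 0 to 171 CPM (median 6.004) (3.51 ± 0.24, adjusted p = 2.32e-12), with pericyte-like cells higher. Col13a1 had 20.9 and 20.2 CPM, against 0 to 20.1 CPM (median 1.33) (adjusted p = 2.93e-05); 2 of those classes were at 0. All 3 tested transmembrane members were therefore called higher.
Col5a2 differed by 1.78 ± 0.22, adjusted p = 2.39e-07, and Col18a1 by 1.67 ± 0.27. The lower calls were Col6a6 (-2.07 ± 0.50, adjusted p = 0.00254), Col5a3 (-1.97 ± 0.33, adjusted p = 4.19e-05), Col8a1 (-1.71 ± 0.45, adjusted p = 0.00569), Col16a1 (-1.36 ± 0.44) and Col15a1 (-1.27 ± 0.35). The other paired chains differed by -0.78 ± 0.29 for Col1a1, -0.12 ± 0.25 for Col1a2, -0.15 ± 0.18 for Col4a1, -0.54 ± 0.19 for Col4a2, 0.01 ± 0.22 for Col5a1, 0.79 ± 0.21 for Col6a1 and 0.22 ± 0.21 for Col6a2; none was called. In library 1 alone 3 lower calls turned their sign: Col6a6 differed by 0.58 and -1.89, Col15a1 by 0.28 and -1.49 and Col16a1 by 0.09 and -1.64. Col4a3 differed by 5.36 and 4.30, Col25a1 by 2.42 and 4.03 and Col5a3 by -0.99 and -2.13, and without the replicate block the calls of Col15a1, Col16a1 and Col8a1 were lost. The call of Col15a1 was lost under 3 and that of Col16a1 under 4 of 12 alternatives in all. Col13a1 differed alone by 2.84 and 2.501.

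The vessel lining was high in the common type IV pair and low in the other 4 type IV chains and in 5 of the 10 fibrillar chains. Endothelial-like cells had 4 members called higher against all other classes, a share near the 10.9% of all genes, and 14 lower, beside 5.25%. Col4a1 had 865 and 835 CPM in endothelial-like cells, against 25.4 to 1149 CPM (median 475) elsewhere (1.60 ± 0.15, adjusted p = 9.81e-10). Col4a2 had 692 and 551 CPM, against 26.9 to 789.8 CPM (median 265) (1.57 ± 0.15, adjusted p = 1.17e-09); the pericyte-like class was higher for both. Col28a1 at 23.3 and 11.6 CPM (adjusted p = 3.93e-07) and Col13a1 at 10.7 and 20.1 CPM (adjusted p = 0.000118) were the other calls, with some other classes at 0.
Of the lower calls, Col26a1 had 0 and 0.892 CPM (-2.76 ± 0.89), Col4a6 8.74 and 2.68 CPM (-2.04 ± 0.59) and Col14a1 9.71 and 12.04 CPM (-2.03 ± 0.30, adjusted p = 4.54e-06). Lower too were Col16a1 at 1.94 and 2.23 CPM (-2.02 ± 0.51), Col4a3 at 4.85 and 16.9 CPM (-1.91 ± 0.35, adjusted p = 9.85e-05) and Col4a4 at 10.7 and 31.2 CPM (-1.86 ± 0.30, adjusted p = 1.41e-05). Col5a1 differed by -1.93 ± 0.27, adjusted p = 1.57e-06, Col6a2 by -1.74 ± 0.27, adjusted p = 7.25e-06, Col6a1 by -1.50 ± 0.26, adjusted p = 4.97e-05, Col1a2 by -1.60 ± 0.28, adjusted p = 3.84e-05 and Col1a1 by -1.28 ± 0.28, adjusted p = 0.000782, while Col5a2, at -0.84 ± 0.27, adjusted p = 0.0233, stayed under 2-fold. Col3a1, Col4a5 and Col5a3 were the remaining ones. By role, the 14 lower calls included 5 of the 10 fibrillar and 4 of the 6 basement membrane members. The calls of Col3a1, Col5a3 and Col26a1 were lost without the replicate block, that of Col4a5 with doublets kept and that of Col16a1 with classes of at least 50 cells. In all, the call of Col5a3 was lost under 3 and that of Col26a1 under 4 of 12 alternatives. Alone, Col28a1 differed by 3.18 and 2.77, Col13a1 by 1.84 and 2.49 and Col1a1 by -1.72 and -0.93. Col3a1 differed by -2.29 and -1.14, Col6a1 by -2.26 and -1.12, Col4a6 by -0.80 and -2.48, Col4a5 by -0.98 and -2.11, Col5a3 by -0.34 and -1.69, Col14a1 by -1.42 and -2.08 and Col26a1 by -2.26 and -1.26.

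Pericyte-like cells were the highest class for Col4a1 and Col4a2 and were also high in Col25a1, Col5a3 and 3 chains of type VI. They had 12 members called higher, beside 8.95% of all genes, and 3 lower, beside 4.47%. Col4a1 had 1124 and 1149 CPM in pericyte-like cells, against 25.4 to 865 CPM (median 475) elsewhere (2.06 ± 0.15, adjusted p = 4.2e-12). Col4a2 had 771 and 789.8 CPM, against 26.9 to 692 CPM (median 265) (1.95 ± 0.15, adjusted p = 1.59e-11); neither overlapped with another class. Col25a1 had 86.8 and 171 CPM, against 0 to 139 CPM (median 6.004) (3.96 ± 0.25, adjusted p = 4.11e-13). Col5a3 had 342 and 269.9 CPM, against 0 to 569 CPM (median 28.9) (3.47 ± 0.18, adjusted p = 3.8e-15). Col6a2 had 167 and 184 CPM (2.21 ± 0.18, adjusted p = 1.22e-10) and Col6a1 244 and 188 CPM (2.10 ± 0.19, adjusted p = 9.87e-10), both under the fibroblast subtypes. Col6a3 differed by 1.83 ± 0.25, Col5a1 by 1.47 ± 0.20, Col27a1 by 1.52 ± 0.25 and Col5a2 by 1.32 ± 0.23.
Col19a1 at 11.9 and 12.998 CPM (adjusted p = 0.000864) and Col24a1 at 3.41 and 21.0 CPM (adjusted p = 0.000704) were also called, with some other classes at 0. Col18a1 was lower, at 5.11 and 1.9996 CPM against 0 to 557 CPM (median 22.3) (-3.34 ± 0.66, adjusted p = 0.000317), as were Col14a1 (-1.10 ± 0.32) and Col4a5 (-1.03 ± 0.35). Type I was not called in either direction, with -0.54 ± 0.29 for Col1a1 and 0.42 ± 0.24 for Col1a2. The calls of Col4a5 and Col14a1 were lost without the replicate block and those of Col4a5, Col5a1, Col5a2 and Col27a1 with doublets kept; that of Col14a1 was also lost with classes of at least 50 cells. Alone, Col24a1 differed by 0.75 and 2.98, under 2-fold in library 1, and Col19a1 by 2.21 and 2.97. Col18a1 differed by -2.14 and -3.56, Col4a5 by -0.70 and -1.42 and Col14a1 by -0.75 and -1.11.

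The mesothelial-like cells shared high types I and III with the fibroblasts but were low in Col15a1, Col5a3 and Col6a3. They had 14 members called higher, beside 15.4% of all genes, and 7 lower, beside 4.3%. Col3a1 had 1998 and 3746 CPM in mesothelial-like cells, against 19.0 to 4375 CPM (median 268) elsewhere (3.20 ± 0.25, adjusted p = 1.81e-11). Col1a1 had 556 and 675 CPM, against 7.45 to 952 CPM (median 67.3) (3.09 ± 0.19, adjusted p = 1.04e-13). Col1a2 had 546 and 708 CPM, against 7.72 to 1239.6 CPM (median 169) (2.49 ± 0.19, adjusted p = 1.55e-11). The fibroblast subtypes overlapped with the class for these 3. Col4a6 had 107 and 145 CPM, against 0 to 431 CPM (median 13.3) (3.21 ± 0.29, adjusted p = 5.79e-10). Col16a1 had 34.7 and 51.8 CPM, against 0 to 256 CPM (median 9.89) (2.82 ± 0.23, adjusted p = 7.63e-11), and Col14a1 133 and 291 CPM (2.71 ± 0.18, adjusted p = 6.32e-13). Col4a4 differed by 2.82 ± 0.20, adjusted p = 1.43e-12 and Col4a3 by 2.62 ± 0.22, adjusted p = 1.01e-10, in a class whose endocardial marker levels are given above. Col6a5 had 12.6 and 12.6 CPM, against 0 to 2.85 CPM elsewhere (adjusted p = 6.82e-07), without overlap and with 5 classes at 0. It held 57 UMIs over all named classes and passed the filter on low counts only through this class, where it is high. Its call therefore adds no support beyond the levels, and it was tested under 10 alternatives only.
Among the lower calls, Col27a1 had 3.16 and 2.99 CPM (-2.93 ± 0.40, adjusted p = 8.6e-07), Col25a1 3.16 and 3.32 CPM (-2.08 ± 0.54), Col6a3 22.1 and 13.6 CPM (-1.86 ± 0.39, adjusted p = 0.000395) and Col15a1 15.8 and 27.5 CPM (-1.65 ± 0.37). Col4a1, Col5a3 and Col4a2 differed by -1.399 ± 0.21, -1.37 ± 0.32 and -1.21 ± 0.21. Type VI was split: Col6a6, Col6a1 and Col6a2 were higher, by 1.82 ± 0.30, 1.19 ± 0.21 and 1.16 ± 0.20, and Col6a3 lower. Col5a1 (0.37 ± 0.22) and Col5a2 (0.90 ± 0.24) were not called, and Col4a5 (1.62 ± 0.25) was called higher.
With doublets kept, 7 of the calls were lost: Col12a1, Col15a1, Col4a5, Col5a3, Col6a1, Col6a2 and Col25a1, and that of Col15a1 was also lost without the replicate block. Col12a1, whose call was lost under 5 alternatives, differed by 1.42 ± 0.54, adjusted p = 0.0494 and alone by -1.44 and 1.34. Alone, the differences were 3.23 and 2.59 for Col4a3, -0.57 and -1.87 for Col6a3, 0.77 and 2.14 for Col4a5, -1.28 and -1.50 for Col25a1, -2.13 and -2.63 for Col27a1 and 2.48 and 1.97 for Col6a6. They were 3.41 and 3.49 for Col6a5, -0.87 and -1.50 for Col4a2 and -0.94 and -1.45 for Col5a3.

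The Schwann-like cells were highest of all classes for Col16a1, Col27a1 and Col20a1. With 34 and 52 cells the smallest class compared, they had 15 members called higher, beside 4.62% of all genes, and 0 lower, beside 0.845%; the median difference was 1.22 over the members and -0.07 over all genes. Of the 34, 20 had an unadjusted p under 0.05 in either direction. Col16a1 had 173 and 256 CPM in Schwann-like cells, against 0 to 51.8 CPM (median 9.89) elsewhere (5.13 ± 0.29, adjusted p = 6.96e-14). Col27a1 had 373 and 408 CPM, against 0.924 to 221 CPM (median 14.1) (4.84 ± 0.24, adjusted p = 2e-15). Col12a1 had 39.97 and 39.3 CPM, against 0 to 38.6 CPM (median 2.08) (3.75 ± 0.78, adjusted p = 0.00164). Col20a1 had 53.3 and 113 CPM, against 0 to 35.8 CPM (median 10.9) (3.13 ± 0.42, adjusted p = 3.22e-06). Col16a1 and Col27a1 did not overlap with any other class. Neither did Col20a1, but 1 UMI is 13.3 CPM in library 1 of this class. The 53.3 CPM of Col20a1 there rests on few UMIs and lay within counting error of the highest other value. The Col12a1 values are 3 and 8 UMIs and lay within counting error of the highest other value. Col5a3 had 413 and 290.0 CPM (3.46 ± 0.27, adjusted p = 8.68e-11), Col18a1 213 and 285 CPM (3.42 ± 0.36, adjusted p = 3e-08), Col3a1 1825 and 2394 CPM (2.56 ± 0.29, adjusted p = 1.23e-07) and Col15a1 119.9 and 418 CPM (2.21 ± 0.33). Col28a1 had 13.3 and 29.5 CPM (adjusted p = 0.0012), which are 1 and 6 UMIs.
Type V was higher in its other chains too, by 2.03 ± 0.26 for Col5a1 and 1.201 ± 0.29 for Col5a2, and type I by 1.48 ± 0.32 for Col1a1 and 1.75 ± 0.27 for Col1a2; Col14a1 differed by 1.70 ± 0.34 and Col6a3 by 1.68 ± 0.40. Col4a1 (0.66 ± 0.20), Col4a2 (0.52 ± 0.21), Col6a1 (0.38 ± 0.39) and Col6a2 (1.11 ± 0.34) were not called. The summed level of the 11 fibroblast markers was 6129 and 6591 CPM in this class, and its part in the fibrillar levels was not tested. Col16a1 and Col27a1 were above every fibroblast value, and so was Col20a1, with the counting limit given above for library 1. The call of Col5a2 was lost without the replicate block and that of Col6a3 with doublets kept; alone, Col28a1 differed by 2.34 and 4.17, Col20a1 by 2.46 and 3.47, Col1a2 by 2.49 and 1.71 and Col12a1 by 4.45 and 3.41.

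The cardiomyocyte-like cells were low in most collagens, with Col4a5 the main exception and no call for Col4a2. They had 3 members called higher, a share below the 19.5% of all genes, and 23 lower, beside 15.6%; the median difference was -2.75 over the members and 0.08 over all genes. Col4a5 had 252 and 276 CPM in cardiomyocyte-like cells, against 21.0 to 482 CPM (median 138) elsewhere (2.10 ± 0.22, adjusted p = 2.1e-09), with smooth muscle-like, mesothelial-like and adventitial-type cells overlapping. Col13a1 at 5.17 and 5.92 CPM (adjusted p = 0.00573) and Col11a2 at 6.85 and 4.07 CPM (adjusted p = 0.00698) were the other higher calls. With total UMIs only, a scaling that moves the median of all genes in this comparison by -0.57, Col13a1 differed by 1.86, adjusted p = 0.0753 and Col11a2 by 0.86, adjusted p = 0.138. Both calls were also lost with doublets kept (0.60, adjusted p = 0.166 for Col13a1), and that of Col11a2 with DESeq2 and at resolutions 0.5 and 2, under 5 of 10 alternatives in all. Alone, Col13a1 differed by 0.83 and 0.72 and Col11a2 by 0.51 and 0.88, each under 2-fold. Col4a2, at 169.8 and 152 CPM, did not differ past the threshold (-0.04 ± 0.17, adjusted p = 0.951), while Col4a1, at 73.8 and 76.0 CPM, was lower (-1.73 ± 0.20, adjusted p = 1.46e-08).
Col18a1 had 1.07 and 1.22 CPM in cardiomyocyte-like cells, against 0 to 557 CPM (median 22.3) elsewhere (-4.45 ± 0.63, adjusted p = 6.68e-07). Col5a2 had 5.37 and 12.8 CPM, against 4.62 to 1138 CPM (median 328) (-4.28 ± 0.34, adjusted p = 8.11e-12). Col14a1 had 2.07 and 3.96 CPM (-3.55 ± 0.25, adjusted p = 8.42e-13), Col5a1 4.87 and 6.92 CPM (-3.46 ± 0.25, adjusted p = 1.55e-12) and Col1a2 7.72 and 14.5 CPM (-3.42 ± 0.28, adjusted p = 2.82e-11). All 3 were below every fibroblast value. Col16a1 had 0.575 and 0.581 CPM (-3.42 ± 0.49), Col5a3 3.07 and 3.22 CPM (-3.29 ± 0.26) and Col25a1 0.775 and 1.06 CPM (-3.27 ± 0.40). Col27a1 had 0.924 and 2.01 CPM (-3.25 ± 0.25) and Col3a1 19.0 and 54.8 CPM (-3.27 ± 0.42, adjusted p = 1.13e-07). Col1a1 differed by -3.12 ± 0.28, Col6a1 by -3.02 ± 0.24 and Col6a2 by -2.94 ± 0.22. Fibrillar members were lower in 7 of 10 cases, and 4 of 5 beaded filament members and both multiplexins were lower too.
Type IV was divided here as well, since Col4a4 (-2.42 ± 0.26), Col4a3 (-1.80 ± 0.28) and Col4a6 (-1.51 ± 0.41) were lower and Col4a5 higher. Per cell, 2.29% and 5.34% of cardiomyocyte-like cells had a UMI of Col3a1 when thinned to 1000 UMIs, below the 6.82% and 12.1% of macrophage-like cells and the 66.7% and 87.1% of Vit-type fibroblasts. Unthinned, the Col3a1 share of cardiomyocyte-like cells was 9.8% and 35.2%, that of macrophage-like cells 13% and 30.3% and that of Vit-type fibroblasts 83% and 97.8%. The call of Col12a1 was lost with the stricter cell filter and that of Col26a1 at clustering resolution 2. Alone, Col3a1 differed by -4.17 and -3.30, Col4a6 by -2.29 and -1.22, Col4a5 by 1.18 and 1.91, Col4a1 by -2.21 and -2.32, Col6a6 by -1.34 and -2.09, Col8a1 by -2.15 and -3.26 and Col12a1 by -1.06 and -1.68. Likewise Col18a1 differed by -3.85 and -4.04, Col16a1 by -2.65 and -3.09, Col25a1 by -2.63 and -2.67 and Col26a1 by -1.94 and -1.65.

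The genes that make, bind and break down collagen were read from a list of 32 synthesis, 10 receptor and 10 breakdown genes, of which 30, 9 and 7 were tested; the counts below keep this order. In fibroblasts 15 synthesis, 3 receptor and 5 breakdown genes were called higher and 0 lower, beside 11.5% of all genes higher and 5.91% lower. They included Pcolce2, an enhancer of procollagen cleavage (3.64 ± 0.16), the procollagen protease Adamts2 (3.18 ± 0.13), the collagen integrin chain Itga11 (4.03 ± 0.22) and the collagenase Mmp2 (3.21 ± 0.10). Between subtypes, adventitial-type fibroblasts (1.07% of all genes higher and 0.771% lower) had 1 synthesis gene higher, the cross-linking enzyme Loxl2 (1.30 ± 0.20), and 1 receptor lower, Itga1 (-1.14 ± 0.25). Vit-type fibroblasts (1.89% and 0.734% of all genes) had 2 synthesis genes higher, the prolyl hydroxylase P3h2 (1.83 ± 0.30) and the protease Adamts3 (1.55 ± 0.33), and 2 lower, Loxl2 (-1.30 ± 0.24) and Adamts14 (-1.17 ± 0.33). The remaining fibroblasts had 0 calls in this list.

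In mesothelial-like cells 13 synthesis, 2 receptor and 3 breakdown genes were higher and 5, 1 and 1 lower, beside 15.4% of all genes higher and 4.3% lower. Among them were Pcolce (3.87 ± 0.17), the collagen receptor kinase Ddr1 (3.59 ± 0.17) and the protease inhibitor Timp1 (3.87 ± 0.37) higher and P3h2 (-2.59 ± 0.39) lower. Endocardial-like against endothelial-like cells had 6, 1 and 3 higher and 2, 2 and 1 lower, beside 6.49% of all genes higher and 5.96% lower. P3h3, another prolyl hydroxylase (3.003 ± 0.35), Ddr1 (3.22 ± 0.43) and the protease Ctsk (2.55 ± 0.40) were higher, and the inhibitor Timp4 (-5.84 ± 0.38) and Itga1 (-2.60 ± 0.26) lower. Against all other classes, endocardial-like cells had 5, 0 and 1 higher and 5, 1 and 0 lower, beside 9.65% of all genes higher and 3.82% lower, with Ctsk (3.80 ± 0.41) and the cross-linking enzyme Lox (2.61 ± 0.46) among the higher ones. Endothelial-like cells had 2, 2 and 2 higher and 9, 3 and 1 lower, beside 10.9% of all genes higher and 5.25% lower, with Timp4 (5.85 ± 0.20) and Itga1 (2.67 ± 0.15) higher.

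Pericyte-like cells had 8, 3 and 2 higher and 1, 0 and 1 lower, beside 8.95% of all genes higher and 4.47% lower, with Itga1 (2.96 ± 0.15) and the fibrillar collagen receptor Ddr2 (2.63 ± 0.23) among the higher ones. Schwann-like cells had 3, 2 and 0 higher and 0 lower, beside 4.62% of all genes higher and 0.845% lower, including P3h2 (2.76 ± 0.27), the collagen-binding matrix protein Sparc (2.01 ± 0.25) and the integrin chain Itga2, at 39.97 and 108 CPM (5.11 ± 0.69). The Itga2 value of library 1 is 3 UMIs. Cardiomyocyte-like cells had 2, 0 and 0 higher and 15, 3 and 6 lower, beside 19.5% of all genes higher and 15.6% lower. Adamts3 (2.54 ± 0.23) and P4ha2, a prolyl hydroxylase (1.33 ± 0.18), were the higher ones, and the collagen glycosyltransferase Colgalt2 (-4.27 ± 0.32) was the lowest.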

How the data were processed

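Right ventricle cells of 2 libraries were measured with 10x Genomics 3′ v3 chemistry, per the labels' protocols. The deposited values are UMI counts per gene and barcode, which the authors made with Cell Ranger; its version 6.0.0 stands in the file headers. GRCm38 (mm10), fastp, Trimmomatic, Seurat and edgeR are named, without roles, in the submitters' processing notes, and settings are not given in the sources used here. Kept barcodes had at least 500 UMIs and 200 genes and at most 25% mitochondrial UMIs. Doublets were scored against simulated pairs at an expected 8%, which marked 8.77% of barcodes in library 1 and 9.01% in library 2, and were removed. The 19975 cells left were clustered on 2000 variable genes, no collagen gene among them, with 30 principal components, 15 neighbours and Leiden resolution 1 (leidenalg 0.10.2, scikit-learn 1.9.0, Python 3.11.15), and the 26 clusters were named from 21 marker lists. Classes and collagen levels come from the same cells, so p-values do not cover the choice of classes.

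Counts were summed per library and class (at least 20 cells in each library), giving 38493 to 40025766 UMIs a sum, and 13496 genes passing edgeR's filter were fitted with TMM scaling and the library as a block (edgeR 4.0.16, R 4.3.3; 12 residual degrees of freedom, common biological coefficient of variation 0.150). The procedure was run on simulated data with the same mean level of a gene in all classes, a fixed spread and no library effect, apart from genes changed in the endocardial sums. That setting lacks the class and library differences of these data, so it does not measure the error of the calls above. The numbers of the 2 libraries pair the sums because all sums with 1 number derive from 1 cell suspension. The alternatives were DESeq2 1.42.0, RLE or total-UMI scaling, no filter, no replicate block, each library alone, stricter cell filters (1000 UMIs, 10% mitochondrial UMIs), doublets kept, resolution 0.5 and 2, collagens kept in clustering, classes of at least 50 cells and, added after the data were seen, the T or NK cell-like class left out. Members, gene lists and comparisons were chosen with earlier results of these data known. All 40 members are accounted for; full values are given for up to 10 called members with the largest differences per comparison and for the paired chains of types I, IV (Col4a1 and Col4a2), V and VI. The marker list for interstitial fibroblasts named no sub-cluster, so the fibroblasts outside the other lists are called remaining.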

Additional observations from a re-analysis of the deposited data

How the results depend on the processing

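Of 155 calls of a member in a comparison, 113 held under every alternative that gives a test; 23 were lost without the replicate block, 21 with doublets kept, 10 with DESeq2, 8 with classes of at least 50 cells, 6 at resolution 2, 5 at resolution 0.5, 5 with the stricter cell filter, 4 with total UMIs only, 2 with collagens kept in clustering, 2 with the T or NK cell-like class left out, 1 with RLE scaling and 1 with no filter on low counts. Scaling by total UMIs moved the median of all genes by -0.57 (log2) in the cardiomyocyte-like and 0.16 in the Schwann-like comparison. The adventitial-type comparison called 0 members, against 1 with collagens kept in clustering, 2 at resolution 0.5, 3 at resolution 2, 1 with the stricter cell filter and 2 to 5 past 2-fold in a single library. The Vit-type comparison called 2, against 1 with DESeq2, 1 with collagens kept in clustering, 4 with no filter on low counts, 1 without the replicate block, 1 with the stricter cell filter and 7 to 10 in a single library. The remaining fibroblasts had 3 calls, against 1 with classes of at least 50 cells, 0 without the replicate block and 4 to 5 in a single library. Endocardial-like against endothelial-like cells had 18 calls, against 11 without the replicate block, and Schwann-like cells had 15, against 25 to 26 past 2-fold in a single library. In library 1 alone, which gives no test, 4 differences turned their sign. In endocardial-like against other classes Col15a1 ran from -1.49 to 0.28, Col16a1 from -1.64 to 0.089 and Col6a6 from -1.89 to 0.58 over the single libraries, and in mesothelial-like against other classes Col12a1 ran from -1.44 to 1.34. The causes were not tested. The planned interstitial-type comparison was not run, because its marker list named no sub-cluster. Depth limits the smallest sums most: smooth muscle-like, Schwann-like and T or NK cell-like classes hold under 100 cells a library, and a member there can rest on 1 UMI.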

Other observations

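The level of many members differed between the libraries in the same direction across classes. Of the 13 classes, library 2 was higher than library 1 in 13 for Col4a3, in 12 for Col3a1, Col5a2 and Col4a4, and in 11 for Col1a1, Col1a2, Col5a1, Col6a1, Col15a1 and Col8a1. The opposite order was seen for Col5a3, higher in library 2 in 3 of 13 classes, Col4a5 in 4, Col4a2 in 5, and Col11a2 and Col28a1 in 2 each. For example, Col3a1 was at 1564 and 3575 CPM in adventitial-type fibroblasts of libraries 1 and 2 and at 1998 and 3746 CPM in mesothelial-like cells, whereas Col5a3 was at 569 and 335 CPM in remaining fibroblasts and 367 and 185 CPM in Vit-type fibroblasts. Both libraries carry the same labels, so these are differences within 1 group, with 1 library on each side and no test. Library 1 also held the higher cardiomyocyte marker levels in its other classes, 7826 to 21278 CPM, against 1818 to 6438 CPM in library 2; whether that moved the collagen levels was not tested.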
